A study of Mus musculus with 2 samples.

Results

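Potassium channel genes were taken as the protein-coding genes whose symbol starts with Kcn and that are present in the gene tables of both libraries, which gave 94 of 21461 nuclear protein-coding genes. The rule uses names only and no measured value. It leaves out 5 non-coding genes with such names, Kcnq1ot1 among them. By their subfamily letters, 77 members encode the pore-forming subunit of a channel and 17 encode an auxiliary subunit. Among the pore-forming genes, 30 belong to voltage-gated subfamilies, 10 to electrically silent subfamilies, 15 to the inward rectifiers, 14 to the 2-pore channels and 8 to the subfamilies of calcium- and sodium-activated channels. The last class follows kinship in sequence and includes Kcnu1, whose channel is gated by pH and not by calcium.

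The study profiled total RNA from forebrains of mouse embryos at day 14.5 of gestation. Its 2 libraries form 1 group and are numbered as biological replicates 1 and 2. Each library came from the forebrain of 1 embryo of strain B6NCrl, a C57BL/6 substrain, with no treatment or altered allele named in the labels. The embryos were collected on different days, the labels give both the same donor entry, and they enter the sex of each as pooled male and female. From 10 ng of size-selected RNA (over 200 nt) plus spike-in RNAs, the libraries yielded 29250404 expected counts in replicate 2 and 35310017 in replicate 1. Of these, 25516 counts in replicate 2 and 25374 in replicate 1 were on potassium channel genes. All 7 forebrain markers checked were detected, and of 4 hindbrain and spinal cord markers 0 were. A whole forebrain holds many cell types, so for any gene fewer cells of a type and less RNA per cell cannot be told apart.

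Potassium channels let potassium ions leave or enter a cell and so set its resting voltage, end action potentials and limit how often a neuron fires. Most pore-forming subunits assemble as tetramers, whereas 2-pore subunits pair as dimers, and each pore is lined by a short conserved stretch, the selectivity filter. In the embryonic forebrain such channels also set the membrane voltage of progenitors and migrating neurons before synapses are common. Voltage-gated subunits open when the membrane depolarizes, electrically silent subunits form no working channel alone and alter the voltage-gated subunits they join, inward rectifiers and 2-pore channels carry resting currents, and calcium-activated channels follow spikes. Auxiliary subunits bind these pores and change how they gate or reach the membrane.

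The selectivity filter was located by a script in the coding sequences of GENCODE release M21 on assembly GRCm38. It looked for codons of threonine or serine, then valine, isoleucine or leucine, then glycine, then tyrosine, phenylalanine or leucine, then glycine. A quantified transcript with this run of 5 codons was present for 76 of the 77 pore-forming genes and for 0 of the 17 auxiliary genes. Outside the potassium channel genes, 213 of 21306 nuclear protein-coding genes held the pattern (1.000%), which is a match of letters and not a sign of a channel. The stretch of 63 bases around the filter is printed for 6 genes from 4 of the pore classes, with the 15 bases of the filter in capitals, so that the region on which the transcript results below turn can be seen. Kcnv1, Kcnj8 and Kcnk10 are the most abundant genes of their classes, Kcnma1 stands for the calcium-activated class, and Kcnj13 and Kcnu1 are genes taken up later.
Kcnv1: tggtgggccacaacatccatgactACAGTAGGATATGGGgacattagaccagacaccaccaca
Kcnj13: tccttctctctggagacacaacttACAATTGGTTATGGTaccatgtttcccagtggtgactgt
Kcnj8: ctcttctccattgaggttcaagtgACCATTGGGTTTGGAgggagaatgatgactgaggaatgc
Kcnk10, first pore: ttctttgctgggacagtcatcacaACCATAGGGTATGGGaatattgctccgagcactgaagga
Kcnk10, second pore: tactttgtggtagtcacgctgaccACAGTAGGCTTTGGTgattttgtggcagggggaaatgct
Kcnma1: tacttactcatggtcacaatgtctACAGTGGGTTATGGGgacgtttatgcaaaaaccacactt
Kcnu1: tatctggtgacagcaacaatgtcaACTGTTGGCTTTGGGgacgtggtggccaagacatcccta

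All are written 5′ to 3′ along the mRNA. Kcnv1 maps to chr15:45109265-45109327, Kcnj13 to chr1:87388997-87389059 and Kcnj8 to chr6:142566424-142566486, all on the minus strand. For Kcnk10, on the minus strand of chromosome 12, an intron divides the first filter itself, whose stretch spans chr12:98490034-98496223, and the second stretch spans chr12:98436324-98440643. Kcnma1 maps to chr14:23528389-23528451 on the minus strand and Kcnu1 to chr8:25881366-25881428 on the plus strand. The related Kcnma1 and Kcnu1 shared 39 of the 63 bases and 11 of the 15 filter bases, whereas the 2 stretches of Kcnk10 shared 29 of 63 and 10 of 15. Over 86 filters of 74 genes, one transcript a gene, 74 different runs of 15 bases were found, so most filters had a run of their own. The runs can differ in residues as well as in codons, since the pattern allows several residues at some positions. Of the 14 2-pore genes, 12 had 2 filters by this pattern, and 62 of the 63 other pore-forming genes had 1.

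A gene was called detected when its TPM, the deposited level scaled for transcript length and library size, was 1 or more in both libraries. By this rule 55 of the 94 potassium channel genes were detected (58.5%), against 59.6% of all nuclear protein-coding genes, so the share was near the background. Their levels lay lower: the median of the mean TPM was 1.56 over all 94, against 4.25 over all nuclear protein-coding genes. Among detected genes the medians were 4.51 TPM for potassium channel genes and 19.4 TPM for nuclear protein-coding genes. The members' share of all TPM came to 0.0481% in replicate 2 and to 0.0388% in replicate 1. Mean TPM was 10 or more for 13 members and 5 or more for 23, and the 5 most abundant genes held 32.7% of the members' TPM in replicate 2 and 34.4% in replicate 1.

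**Figure D1:**
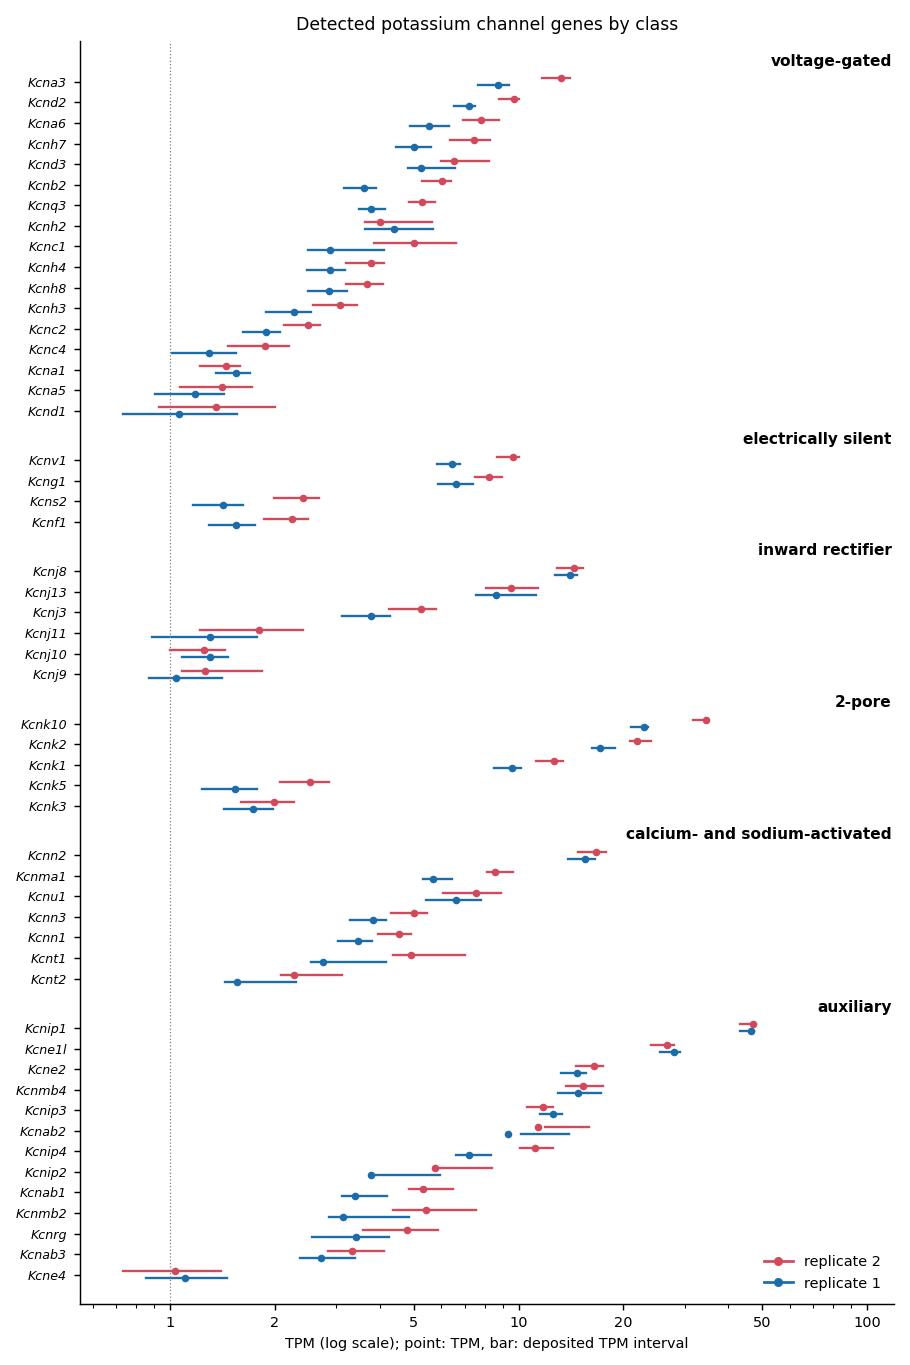
TPM (log axis) of 52 detected potassium channel genes, grouped by class and ordered by mean TPM, with replicate 2 above replicate 1 for each gene. Points are the deposited TPM, bars the deposited TPM intervals and the dotted line is 1 TPM. Kcnip1 lies highest at 47.0 and 46.4 TPM, and in Kcnab2 and Kcnip2 the points lie below their own intervals.

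The most abundant member was an auxiliary gene. Of the 13 members with a mean of 10 TPM or more, 6 were auxiliary and 7 pore-forming. Kcnip1 (ENSMUSG00000053519.11), on chromosome 11 of GRCm38 from 33629339 to 33993152, encodes a calcium-binding protein that assembles with A-type voltage-gated channels, and it had 47.0 TPM in replicate 2 and 46.4 in replicate 1 (46.7 ± 0.438, SD, n = 2). It was at or above 83.5% of nuclear protein-coding genes. Kcne1l (ENSMUSG00000090122.3), a single-span subunit gene on chromosome X from 142304752 to 142306294, had 26.7 TPM in replicate 2 and 27.9 in replicate 1. These levels were nearly equal in both embryos, and both genes lay above every other auxiliary gene. Kcnmb4, the beta subunit of large-conductance calcium-activated channels that predominates in brain, had 15.3 and 14.8 TPM in replicates 2 and 1. Kcnip3, which also acts as a DNA-binding repressor, had 11.8 and 12.5 TPM, and Kcnab2, a cytoplasmic beta subunit of Kcna channels, had 11.4 and 9.36 TPM. The Kcnab2 values come with a limit of the deposited estimates, since both lie below their own intervals, which start at 11.9 TPM in replicate 2 and at 10.2 TPM in replicate 1. The same was true of Kcnip2, with 5.76 TPM below an interval from 5.85 in replicate 2 and 3.78 TPM below one from 3.90 in replicate 1. Over all 94 members, the TPM lay outside its own interval for 11 in replicate 2 and for 13 in replicate 1. In each library most of these had a TPM of 0, which lies below any lower bound above 0. Those with a TPM above 0 were Kcnab2, Kcnip2, Kcnq1, Kcnj15 and Kcnj16. Kcnip4 had 11.2 TPM in replicate 2 and 7.22 in replicate 1, with intervals apart. All 4 Kcnip genes and all 3 Kcnab genes were detected, but 3 of 5 Kcne genes and 2 of 4 Kcnmb genes were. Kcnrg, which encodes a protein that binds Kcna subunits, had 4.80 and 3.41 TPM. Between auxiliary relatives, Kcnip1 was 3.84 times Kcnip3, the next gene of its subfamily, and 5.19 times Kcnip4. Kcne1l was 1.75 times Kcne2, Kcnip3 was 2.60 times Kcnip2, Kcnab2 was 2.43 times Kcnab1 and Kcnmb4 was 3.65 times Kcnmb2. Each of these pairs was separated in both libraries. Kcnip1 overlaps Kcnmb1, a beta subunit gene of smooth muscle that averaged 0.130 TPM, and Kcne2 lies 47.9 kb from Kcne1, a heart and inner ear subunit gene that averaged 0.0450 TPM.

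The 17 auxiliary genes summed to 166 TPM in replicate 2 and 151 in replicate 1, or 34.5% and 39.0% of the members' TPM. The 77 pore-forming genes summed to 315 TPM in replicate 2 and 236 in replicate 1. Each sum is one of transcripts, and it does not count channels, which need several pore-forming subunits each. By subfamily, Kcnip genes had the highest sum in replicate 1, ahead of Kcnk genes, whereas in replicate 2 Kcnk genes summed to 76.5 TPM and Kcnip genes to 75.7 TPM. The order of these 2 subfamilies differed between the libraries. Kcne genes came next with 44.6 TPM in each library.

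**Figure D2:**
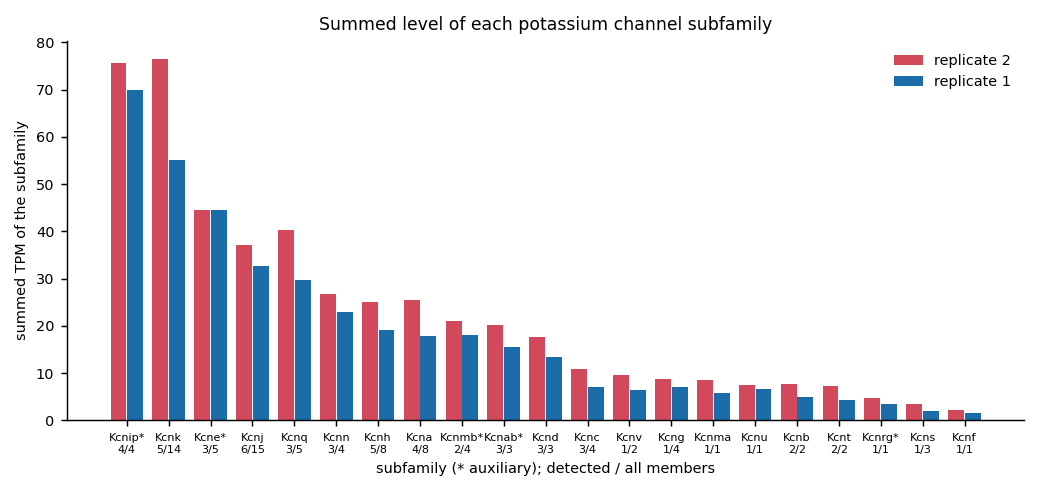
Summed TPM of each of the 21 subfamilies, with replicate 2 left of replicate 1; an asterisk marks auxiliary subfamilies, and the figures under each name are detected and all members. The bars start at 0; Kcnip and Kcnk lead, and Kcns and Kcnf stand last.

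The 2-pore channels ranged from the most abundant pore-forming gene to no count. Of 14 genes 5 were detected, the median over all 14 was 0.608 TPM, and the class summed to 65.8 ± 15.2 TPM (SD, n = 2). Kcnk10 (ENSMUSG00000033854.9), a mechanically and lipid-gated channel gene on chromosome 12 from 98429437 to 98578310, was the most abundant pore-forming gene, with 34.4 TPM in replicate 2 and 22.9 in replicate 1 (28.7 ± 8.13, SD, n = 2). Its close relative Kcnk2, on chromosome 1 from 189207930 to 189402273, had 21.9 TPM in replicate 2 and 17.1 in replicate 1. In both libraries the intervals of the pair lay apart, with Kcnk2 at 0.689 of the Kcnk10 level (log2 ratio -0.54 ± 0.16, SD, n = 2). On expected counts that are not divided by length the pair was no longer separated. Kcnk1, a weakly conducting 2-pore channel gene, had 12.7 TPM in replicate 2 and 9.55 in replicate 1. The acid-sensitive channels were much lower, with Kcnk3 at 1.99 and 1.73 TPM and Kcnk9 at 0.360 and 0.240 TPM. Kcnk3 was 6.31 times Kcnk9, and the 2 genes were separated in both libraries.

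Among voltage-gated genes 20 of 30 were detected, with a sum of 127 TPM in replicate 2 and 92.0 in replicate 1. Kcnq3 and Kcnq5 encode subunits of the M-current, the slow potassium current that damps repeated firing. Kcnq3 had 5.27 TPM in replicate 2 and 3.77 in replicate 1, and Kcnq5 lay at 0.251 of it. For Kcnq1, a heart and epithelial channel gene, the estimates were unstable: 0.750 TPM in replicate 2 and 1.79 in replicate 1. Each lay below its own interval, of 1.19 to 4.78 in replicate 2 and 1.84 to 5.04 in replicate 1. By its TPM the gene reached 1 in replicate 1 only, although both intervals lay above 1 TPM.

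In the Kcna subfamily, the genes known from adult axons lay below Kcna3 and, over all transcripts, below Kcna6. Over protein-coding transcripts alone Kcna6 averaged 0.690 TPM, with 0 TPM in replicate 2 and a level close to that of Kcna1 in replicate 1. Kcna3 led with 13.2 TPM in replicate 2 and 8.74 in replicate 1, and Kcna6 had 7.83 and 5.54 TPM. Kcna1 had 1.45 and 1.55 TPM, whereas Kcna2, which forms axonal channels with Kcna1 in the adult brain, had 0.14 and 0.10 TPM from 8 counts in each library. Kcna1 was 12.7 times Kcna2, with the intervals apart in both libraries. Kcna10 and Kcna7 had no count. Kcna3 lies 63.1 kb from Kcna2 and 145 kb from Kcna10 on chromosome 3, so a high and a near-silent gene lie side by side.

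The A-type channel genes Kcnd2 and Kcnd3, whose pores the Kcnip proteins join, were detected along with Kcnd1. Kcnd2 had 9.72 TPM in replicate 2 and 7.19 in replicate 1, and Kcnd3 had 6.55 and 5.24 TPM. The 2 were not separated, since their intervals met in replicate 1. The Kcnip genes together held 75.7 TPM and the Kcnd genes 17.6 TPM in replicate 2, against 69.9 and 13.5 TPM in replicate 1. Kcnb2, a delayed rectifier gene, had 6.02 TPM in replicate 2 and 3.60 in replicate 1. Kcnc genes, whose channels let adult neurons fire fast, had modest levels, led by Kcnc1 with 5.00 TPM in replicate 2 and 2.87 in replicate 1. Kcnc1 and Kcnc2 were separated (1.75 times).

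The Kcnh genes encode the eag, erg and elk channels. Kcnh7, of the erg group, had 7.44 TPM in replicate 2 and 5.02 in replicate 1, and Kcnh2, the erg channel best known from the heart, had 4.01 and 4.39 TPM. They were separated in replicate 2 alone, so the pair was not called. Of the eag genes, Kcnh1 had 1.11 and 0.730 TPM and Kcnh5 1.53 and 0.640 TPM. The sign of their ratio differed between the embryos, and they were not separated.

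Of the electrically silent subunit genes 4 of 10 were detected, with sums of 24.0 TPM in replicate 2 and 16.9 in replicate 1. Kcnv1, which joins Kcnb subunits, had 9.63 TPM in replicate 2 and 6.46 in replicate 1, and Kcng1 had 8.24 and 6.60 TPM. Kcng1 was 29.6 times Kcng2, the widest of the 21 pairs given here, and Kcns2 was 5.75 times Kcns3. Kcng2 had 0.27 TPM in replicate 2 and 0.23 in replicate 1, from 13 and 14 counts. Its intervals reached up to 1.40 and 1.07 TPM, so the size of that ratio is uncertain. Kcnf1 had 2.23 and 1.55 TPM.

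The inward rectifiers were led by genes known from vessels and choroid plexus. Kcnj8, on chromosome 6 from 142564837 to 142571614, encodes a pore of ATP-sensitive channels of pericytes and smooth muscle, and it had 14.43 TPM in replicate 2 and 14.02 in replicate 1. Kcnj13, known from the choroid plexus epithelium, had 9.51 and 8.63 TPM. Its level carries a limit, since 49.1% of its exonic bases lie within exons of Gigyf2 on the other strand. Kcne2, an auxiliary gene of the choroid plexus epithelium, had 16.5 and 14.7 TPM. Kcnj8, Kcnj13 and Kcne2 differed little between the embryos. Beside them, all 4 pericyte markers checked were detected, summing to 138 TPM in replicate 2 and 97.2 in replicate 1, and of 4 choroid plexus markers 3 were detected, summing to 803 and 793 TPM, almost all of it Ttr. Kl, the fourth, had 0.310 and 0.160 TPM. The part of these cell types in the 3 genes was not tested. The sulfonylurea receptor gene Abcc9, partner of Kcnj8, had 2.35 and 1.57 TPM and lies 16.2 kb away, and Kcnj11, the other ATP-sensitive pore gene, had 1.8 and 1.3 TPM, beside Abcc8, 3.76 kb away, with 7.63 and 4.66 TPM. Kcnj8 was 9.30 times Kcnj11.

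Of the G protein-gated rectifiers, Kcnj3 had 5.25 TPM in replicate 2 and 3.77 in replicate 1, Kcnj9 had 1.26 and 1.04 TPM, and Kcnj6 had 0.880 and 0.580 TPM. Kcnj3 was 6.23 times Kcnj6. Kcnj10, the main rectifier of mature astrocytes, averaged 1.27 TPM, in libraries where 1 of 3 astrocyte markers was detected. It was 5.63 times Kcnj2. Kcnj1, a kidney channel gene, had no count.

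The calcium- and sodium-activated subfamilies had the highest share of detected genes among the pore classes, 7 of 8, with Kcnu1 counted although almost none of its TPM was in filter-bearing transcripts. Kcnn2, a small-conductance channel gene of the afterhyperpolarization that follows spikes, had 16.7 TPM in replicate 2 and 15.6 in replicate 1, and was 3.69 times Kcnn3. Kcnn3 had 5.01 and 3.81 TPM and Kcnn1 had 4.55 and 3.47 TPM, and these 2 were not separated. Kcnma1, the large-conductance channel gene, had 8.56 TPM in replicate 2 and 5.68 in replicate 1, below its beta subunit gene Kcnmb4 in both. Kcnt1 and Kcnt2 encode sodium-activated channels and had 4.90 and 2.74 TPM and 2.26 and 1.56 TPM, with Kcnt1 at 1.95 times Kcnt2. This order holds over all transcripts only. Over protein-coding transcripts alone the log2 ratio of Kcnt2 over Kcnt1 was 0.34, but the intervals scaled to those transcripts met, so the 2 genes were not separated. The eighth gene, Kcnn4, known from red blood cells and lymphocytes, had 0.380 and 0.0700 TPM from 13 and 3 counts.

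Within subfamilies, 226 pairs had at least 1 detected gene, and 194 of them (85.8%) were separated, meaning that in each library the deposited TPM intervals of the pair did not meet, with the same gene on top. The 226 include pairs of a detected gene with one of few or no counts, which separate easily. The share was not computed for pairs of other genes, so it is not a trait of these subfamilies. Of the 21 pairs given here 17 were separated, 11 with the first gene higher and 6 with the second. The level of these intervals is not stated in the files, and with 2 libraries an exact test cannot go below p = 0.5, so no p is given. Down the order of the 20 most abundant members, Kcnip1 and Kcnk10 were the only neighbours of 19 that were separated, so the exact ranks below Kcnip1 were not resolved.

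**Figure D3:**
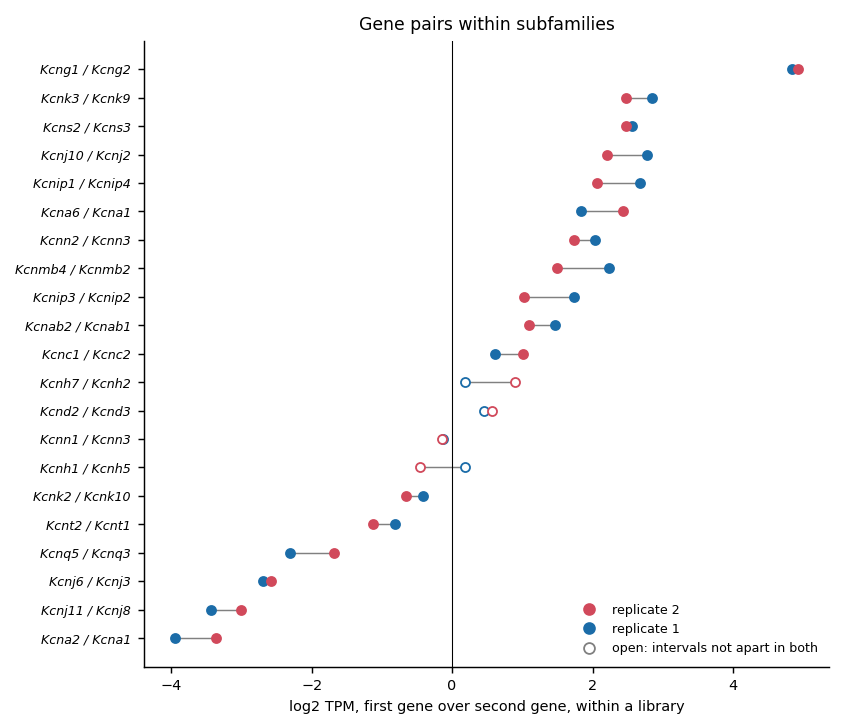
Log2 ratio of TPM of the first gene over the second within each library, for 21 pairs; filled points mark pairs whose intervals lay apart in both libraries and open points those that did not. The ratios run from -3.66 for Kcna2 over Kcna1 to 4.89 for Kcng1 over Kcng2 in the mean, and the 4 open pairs have means from -0.14 to 0.54.

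At the lower end, 39 members were not detected, of which 29 had a count in both libraries. In replicate 2 only, 8 more reached 1 TPM. Just inside the threshold were Kcne4 with 1.03 and 1.10 TPM, Kcnj9 and Kcnd1 with 1.35 and 1.06 TPM, and just outside were Kcna4 with 1.46 and 0.780 TPM and Kcnj12 with 1.23 and 0.860 TPM. In both libraries 9 members were under 0.1 TPM. Those with no count at all were Kcna10, Kcna7, Kcnj1 and Kcnk16. Such a zero still permits 3 counts, equal for Kcna7 to 0.0502 TPM in replicate 2 and 0.0386 in replicate 1, and this bound covers counting error only.

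The embryos could be compared as single libraries, with no test of a condition. A difference was called at a mean TPM of 1 or more, a ratio of 2-fold or more and intervals apart, and 61 members were eligible. Kcnq5 had 1.65 TPM in replicate 2 and 0.760 in replicate 1 (log2 ratio 1.12), and Kcnh5 had 1.53 and 0.640 TPM (log2 ratio 1.26). These 2 of 61 were higher in replicate 2 (3.28%), where 0.789% of all eligible genes were called in that direction, and 0 of 61 were higher in replicate 1, against 0.115%. Both lie near the minimum level. With edgeR's TMM normalization of the expected counts Kcnh5 alone was called, and with a pseudocount of 1 neither was.

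A smaller shift ran through the list. Of the 55 detected members 49 had the higher TPM in replicate 2 (89.1%), against 74.0% of all detected nuclear protein-coding genes. These counts hold on the TPM scale and were not repeated on others. In deposited FPKM Kcnip1 had 28.3 in replicate 2 and 30.05 in replicate 1, the reverse of its order in TPM. Kcnk10, with 20.75 and 14.87 FPKM, stayed higher in replicate 2. The median log2 ratio of replicate 2 over replicate 1 was 0.40 for the members and 0.16 for all detected genes. The intervals lay apart at any fold for 25 of 55 with replicate 2 higher (45.5%), against 35.3% of detected genes, and for 0 of 55 with replicate 1 higher, against 6.78%. The deposited values were higher in replicate 2 for all 7 detected calcium- and sodium-activated genes, all 5 detected 2-pore genes and 18 of 20 voltage-gated genes. The 6 detected members with the higher TPM in replicate 1 were Kcne1l, Kcnip3, Kcnh2, Kcna1, Kcnj10 and Kcne4. By class, the sum in replicate 2 over that in replicate 1 was 1.42 for electrically silent, 1.39 for 2-pore, 1.38 for voltage-gated, 1.26 for calcium- and sodium-activated, 1.14 for inward rectifier and 1.10 for auxiliary genes. Marker sums differed as well. The ratio was 1.19 for 5 neuron markers, 1.00 for 5 radial glia markers, 1.28 for 4 red blood cell markers, 1.42 for 4 pericyte markers and 1.01 for 4 choroid plexus markers. It was 1.55 for 4 oligodendrocyte lineage markers, 1.53 for 3 astrocyte markers, 1.08 for 4 endothelium markers and 1.07 for 4 microglia markers. The part of cell make-up in the shift was not tested.

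**Figure D4:**
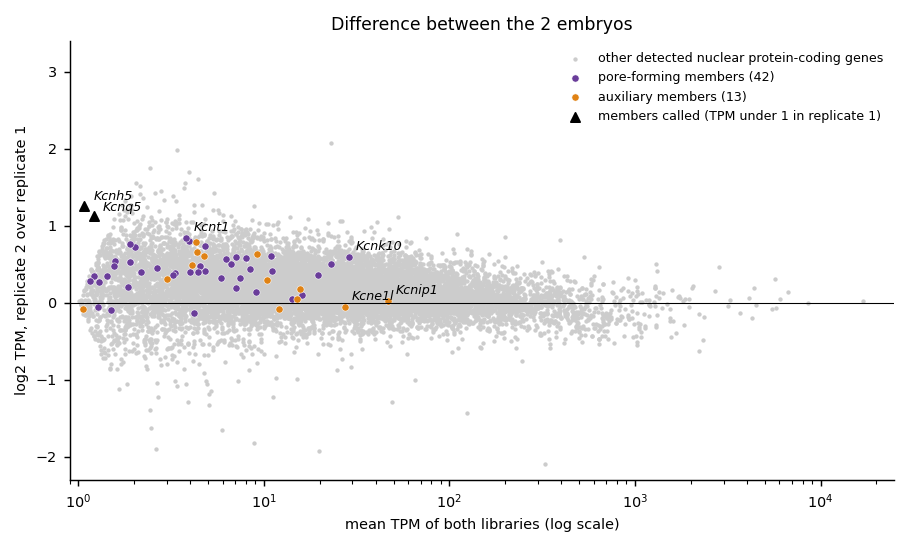
Log2 ratio of TPM, replicate 2 over replicate 1, against mean TPM (log axis) for detected nuclear protein-coding genes (grey), pore-forming members (purple) and auxiliary members (orange). Triangles mark Kcnq5 and Kcnh5, the 2 members called, which were under 1 TPM in replicate 1; most members lie above 0.

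A gene's TPM sums all its annotated transcripts, including those that code for no channel. Among the 23 members with a mean TPM of 5 or more, 1 had under 50% of its TPM in transcripts typed protein-coding, where 7.28% of nuclear protein-coding genes at that level did. This was Kcna6, with 0% in replicate 2 and 24.9% in replicate 1, and it was also the 1 of the 23 whose leading transcript differed between the libraries. A transcript of 5827 nt held 63.8% of the gene's TPM in replicate 2 and 29.3% in replicate 1. It is typed as a target of nonsense-mediated decay, yet its annotated coding sequence of 1587 bases is as long as that of the 5836-nt transcript typed protein-coding and holds the filter. A transcript of 2080 nt, typed as processed and with no coding sequence, held 36.1% in replicate 2 and 45.8% in replicate 1. Over protein-coding transcripts alone the log2 ratio of Kcna6 to Kcna1 was -2.69, against 2.14 over all transcripts. In replicate 2 Kcna6 had 0 TPM in such transcripts, so the bound of 3 counts (0.0389 TPM) stood in for it. In replicate 1 its protein-coding transcripts had 1.23 and 0.15 TPM, against 1.55 TPM for Kcna1, and the 2 genes were not separated there. The size of the ratio thus rests on the bound in replicate 2.

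Several other abundant members had part of their TPM in transcripts not typed protein-coding, and some of these shares differed between the libraries. Processed transcripts held 6.01% of Kcnmb4 in replicate 2 and 18.1% in replicate 1, and 26.6% and 4.77% of Kcnh7. Retained-intron forms held 32.7% and 26.9% of Kcnn2, and a form typed for nonsense-mediated decay held 24.6% and 20.7% of Kcnk2. A single transcript held 80.5% and 77.1% of Kcnip1. Kcnk10, Kcne1l, Kcnj8, Kcnk1, Kcna3, Kcnd2 and Kcnv1 each had a single transcript in the tables.

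Whether a transcript carried the selectivity filter was read from its annotated coding sequence. Of the 42 detected pore-forming genes, 30 had over 90% of their TPM in filter-bearing transcripts in both libraries, and 4 had under 50% in both. Kcnu1, the potassium channel gene of sperm, on chromosome 8 from 25849623 to 25937939, had 7.54 TPM in replicate 2 and 6.61 in replicate 1. However, its full-length transcript, of 3529 nt, the 1 that encodes the filter shown above, had 0 and 7.29 expected counts. The counts were on a transcript of 1446 nt, with 117.99 and 116.08, and on one of 697 nt, with 27.01 and 37.63, so filter-bearing transcripts held 0% and 1.36% of the gene's TPM. The gene-level TPM of Kcnu1 thus comes almost wholly from transcripts without the filter.

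For Kcnh7, filter-bearing transcripts held 25.9% of the TPM in replicate 2 and 24.5% in replicate 1. The full-length transcript, of 13321 nt, took 449 and 371 expected counts, more than any other form of the gene. A transcript of 2849 nt, whose coding sequence of 1545 bases holds no filter, had 117 and 154 counts but, per length, 32.5% and 48.8% of the TPM. For Kcnt1 the filter-bearing share of TPM was 35.3% and 41.4%, with retained-intron transcripts making up most of the rest. By expected counts the order was otherwise. Its filter-bearing transcript of 5881 nt alone took 103.08 and 99.74 of the gene's 248 and 203 counts. A retained-intron form of 532 nt, with 6.25 and 3.46 counts, held 16.7% and 12.8% of the TPM. For Kcnj8 it was 0%, because the only quantified transcript is annotated with a coding sequence of 381 bases that stops before the filter. The filter printed above for Kcnj8 comes from a longer transcript of the later annotation release, which has no row in the tables used here, so the 0% says nothing of whether Kcnj8 RNA carries the filter.

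**Figure D5:**
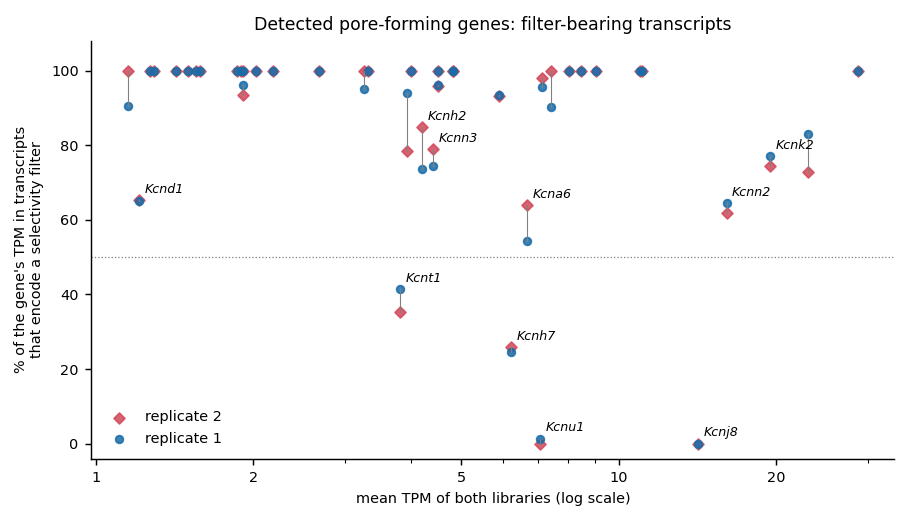
Percent of each gene's TPM held by transcripts that encode a selectivity filter, against mean TPM (log axis), for the 42 detected pore-forming genes; diamonds are replicate 2 and circles replicate 1, joined by a line. Kcnt1, Kcnh7, Kcnu1 and Kcnj8 lie below the dotted line at 50%, and 30 genes lie above 90% in both libraries.

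Exons of 26 members, 19 of them detected, overlap exons of a gene on the other strand, and no source used here states whether counting used the strand. Reads of such partners cannot be told apart if it did not. Kcnd3 had 752.74 expected counts in replicate 2 and 792.75 in replicate 1, and Kcnd3os, on the other strand, had 8.26 and 10.25. In each library the fractions of this pair complete a whole count, so some reads were divided between these genes. The largest share among the 26 is that of Kcnj13, of whose exonic bases 49.1% lie within exons of Gigyf2, a broadly active gene with 44.8 TPM in replicate 2 and 40.7 in replicate 1. For Kcnmb4, Kcnmb4os2 covers 20.8% of exonic bases and had 3.0 and 4.68 TPM. For Kcnk2, A430027H14Rik covers 12.2% and had 5.63 and 5.16 TPM. The levels of these 3 genes carry that limit, as do those of the other members with such an overlap. Among these are Kcna6, with 39.6% within Gm26673, and Kcnj3, with 31.1% within Gm26794. Gm26673 had 0 TPM in both libraries, and Gm26794 had 0.540 TPM in replicate 2 and 0.370 in replicate 1.

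Partners of the channels outside the Kcn names were read from a list of 27 genes. Of these 22 were detected, with sums of 800 TPM in replicate 2 and 589 in replicate 1. Among the most abundant was Atp1b3, a beta subunit gene of the sodium-potassium pump, with 139 TPM in replicate 2 and 119 in replicate 1. Ank3, the ankyrin that anchors Kcnq channels at the axon initial segment, had 70.9 TPM in replicate 2 and 49.4 in replicate 1, and Cntnap2, which clusters Kcna channels along axons, had 59.8 and 57.9 TPM. Atp1b1, another pump subunit gene, had 64.2 and 43.7 TPM. Among the 5 not detected were Lrrc26, Lrrc38 and Lrrc52, which encode gamma subunits of large-conductance channels, and Hcn2, a pacemaker channel gene, with Hcn2 at 0.480 and 0.270 TPM and Lrrc52 with no count. Lrrc55, the other gamma subunit gene listed, was detected with 7.29 TPM in replicate 2 and 6.40 in replicate 1.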

How the data were processed

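Total RNA-seq of 2 E14.5 forebrain libraries was analysed from 1 gene table and 1 transcript table per library. The authors deposited expected counts per gene and transcript, estimated from transcriptome alignments and not normalized. The TPM values, scaled by the authors for transcript length and library size, were used as deposited, and the FPKM values deposited beside them served as an alternative. The deposited percent of each gene's TPM held by a transcript was used for transcript shares. The lower and upper bounds of the deposited TPM intervals, read as a non-negative signal, have no stated level. Assembly mm10 and GENCODE M4 are named in notes the authors deposited with the tables. The aligner, the quantifier and the use of strand are not given in the sources used here.

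Gene names, types, transcripts and coding sequences were taken from GENCODE M21 on GRCm38, the same assembly, by gene and transcript identifiers without version. Detection needed 1 TPM in both libraries. Differences between embryos needed a mean of 1 TPM, a ratio of 2 and intervals apart, and they compare 2 libraries only. Means carry the SD over the 2 libraries, which may be technical in part. Over all genes the libraries differed by more than counting noise (chi-square per degree of freedom 28.2 over 18196 genes). A count of 0 was bounded by 3 counts, or 0.170 TPM per kb in replicate 2 and 0.131 in replicate 1, for counting error only.

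Named were the 20 members with the highest mean TPM, the highest of each subfamily, both genes of 24 pairs of relatives, members that differed between embryos, the 3 on each side of the detection threshold, members with no count, and those with unusual transcript shares. Kcnq1, Kcnn4, Kcne1, Kcnmb1 and the partner Lrrc55 were added after their values were seen. The members and lists were chosen with earlier results of these data known. Some genes and sequences that these rules name are not reported here. Partner genes were named where among the 6 highest or not detected. Outside these rules, Abcc8 and Abcc9 were named as neighbours of Kcnj11 and Kcnj8, and Kcnj15 and Kcnj16 for a TPM outside its interval.

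Alternatives covered the detection threshold, leaving out each library, posterior mean TPM, protein-coding transcripts only, rescaling to nuclear protein-coding genes, FPKM, counts, the rules for a difference and edgeR TMM normalization. The calling steps were tested on simulated data with counting noise only. The 2 libraries differed by more than that, so the simulation does not show how often such calls are wrong here. Python 3.11.15, pandas 2.3.3, numpy 2.4.6, matplotlib 3.10.9, R 4.3.3 and edgeR 4.0.16 were used.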

Additional observations from a re-analysis of the deposited data

Results flagged for a closer look

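Of 5 antisense genes with Kcn names, which are not protein-coding and so not among the 94 members, 4 had expected counts above the 3 that a count of 0 allows. Kcnq1ot1, the imprinted RNA transcribed from within Kcnq1, had 1545.15 counts in replicate 2 and 915.32 in replicate 1. Its TPM was 1.04 in replicate 2 and 0.47 in replicate 1, with intervals apart and a ratio of over 2. Kcnmb4os2 had 40.18 counts in replicate 2 and 63.72 in replicate 1. Kcnab3os had 12.0 and 4.0 counts and Kcnd3os had 8.26 and 10.25 counts in replicates 2 and 1. The other gene, Kcnmb4os1, had 0 counts in replicate 2 and 1.83 in replicate 1. The exonic overlap of Kcnq1ot1 with Kcnq1 is 121 bases, and Kcnq1 had 38.82 counts in replicate 2 and 74.68 in replicate 1, far fewer than Kcnq1ot1. These counts are not divided by length, and Kcnq1ot1 is much the longer. In TPM, Kcnq1 had 0.75 in replicate 2 and 1.79 in replicate 1, so it lay below Kcnq1ot1 in replicate 2 only. Where exons overlap, reads cannot be told apart if counting did not use the strand. The fractional counts of Kcnq1 and Kcnq1ot1 complete a whole count in replicate 1 and nearly do so in replicate 2. Some reads thus appear to have been divided between these genes, and the count of Kcnq1 carries that limit.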

How the results depend on the processing

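The count of 55 detected members ran from 40 at a threshold of 2 TPM to 73 at 10 expected counts, and was 63 and 56 in replicates 2 and 1 alone. The median of 1.56 TPM was 1.90 after rescaling to nuclear protein-coding genes, 2.18 over members of 0.1 TPM or more and 0.972 in FPKM, and 1.83 to 1.48 with 1 library left out. Rescaling took the pore-forming sum from 275 to 334 TPM and the auxiliary sum from 159 to 193 TPM, which follows from scale factors of 1.20 in replicate 2 and 1.23 in replicate 1. Over filter-bearing transcripts only, an alternative chosen after seeing the data, the pore-forming sum was 223 TPM, which sets Kcnj8 (14.2 TPM) to 0 for want of a filter-bearing transcript in the tables. The 2 members called between embryos became 0 at a mean of 5 TPM or with a pseudocount of 1, 1 with TMM normalization, 4 with no minimum and 12 at a fold of 1.5, all higher in replicate 2. Without the interval rule they were 3, with Kcnq1 lower in replicate 2. Members with under 50% of TPM in protein-coding transcripts numbered 2 at a mean of 1 TPM, Kcna6 and Kcnt1. Over protein-coding transcripts only, the log2 ratio of Kcna6 to Kcna1 was -2.69 and that of Kcnt2 to Kcnt1 was 0.34, both of opposite sign. The first rests on the bound of 3 counts for Kcna6 in replicate 2. Neither pair was then separated in both libraries, and the cause was not tested. Separated pairs numbered 187 to 201 under the alternatives, against 194. No paired analysis was possible because the libraries form 1 group. With 2 libraries, no test can place these values beyond embryo-to-embryo spread.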
